A study of Mus musculus with 22 samples.

Results

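The 5 miRNAs described here are the mature products of the 2 mouse miR-23, miR-27 and miR-24 clusters: mmu-miR-23a, mmu-miR-27a, mmu-miR-24, mmu-miR-23b and mmu-miR-27b. They were taken by name from the 599 endogenous probes of a NanoString nCounter mouse miRNA panel, and all 5 were present. The panel counts each miRNA directly through a fluorescent barcode, and the submitters ran it on total RNA of a mammary gland (the fourth on the left side), 1 C57BL/6 female per sample. All mice began at 4 to 5 weeks of age and were fed for 3 weeks. The control diet was basal AIN-93G, and the other groups received 10% flaxseed, 3.67% flaxseed oil (called oil here) or 0.15% secoisolariciresinol diglucoside (SDG, a flaxseed lignan). Each gland ran in its own lane, giving 5 basal, 6 flaxseed, 5 oil and 6 SDG lanes, each named here by its diet and replicate number. A whole gland holds fat, vessels, epithelium and immune cells, so fewer cells of a type and less miRNA per cell cannot be told apart in any of the values below.

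In each cluster the miR-23, miR-27 and miR-24 hairpins lie side by side and are cut from a shared primary transcript. The miR-27 pair is known as a brake on adipocyte formation that acts on the mRNA of Pparg, the master regulator of fat cell differentiation. The miR-23 and miR-27 pairs are abundant in endothelial cells, where they promote vessel sprouting, and miR-24 is known from human cells to hold back proliferation through E2F2 and MYC.

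The mature sequences show how the 2 clusters relate, and are given 5′ to 3′ from RefSeq (GRCm38.p6) with the seed, bases 2 to 8, in capitals. RefSeq entries were matched for 4 of the 5 members, and mmu-miR-23b is named only.
mmu-miR-23a: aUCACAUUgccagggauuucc
mmu-miR-27a: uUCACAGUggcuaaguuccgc
mmu-miR-27b: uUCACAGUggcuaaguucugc
mmu-miR-24: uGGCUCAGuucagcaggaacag
The miR-27 paralogs share the seed UCACAGU, which no other of the 1679 mature mouse sequences in the table carries. Counted from the 5′ end, the only difference from miR-27a to miR-27b over 21 bases is C19U, so the probes must separate miRNAs that differ by 1 base outside the seed. How far either probe counts the other miRNA was not tested. The seed of miR-24, GGCUCAG, was found in 5 mature sequences, the other 4 being miR-5124b, miR-6369, miR-6410 and miR-6413.

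The first cluster lies on the plus strand at chr8:84208518-84208921, where Mir23a, Mir27a and Mir24-2 span 404 bases with no annotated gene across them. Mature miR-23a is at chr8:84208563-84208583 and miR-27a at chr8:84208727-84208747. The second cluster lies on the plus strand at chr13:63300484-63301275, where Mir23b, Mir27b and Mir24-1 span 792 bases within Aopep, the gene of aminopeptidase O. Mature miR-27b is at chr13:63300760-63300780. The same miR-24 sequence is encoded in both clusters, at chr8:84208875-84208896 and chr13:63301251-63301272, so its count cannot be assigned to either. The panel had 0 further probes for other arms of these hairpins.

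Endogenous counts per lane ran from 260551 to 762146. The probe miR-720 took 65.4% of the endogenous count in basal 1, 53.7% in flaxseed 3 and 47.4% in SDG 5, against 2.37% to 8.61% in the other 19 lanes, and results are given with all 22 lanes and with those 19. Flaxseed 3 also had the lowest geometric mean of the housekeeping probes, 135 counts against at least 1070 in the other lanes. Its geometric mean of the positive ligation controls was the lowest too, 4284 counts against at least 6076. In the authors' separate table of log2 values, 16 columns correlated best with the lane of their own name across 238 probes, whereas each of the 6 SDG columns correlated best with another SDG lane. The replicate numbers of the SDG lanes are therefore uncertain, and the table was used only at the level of the diets. The 5 members together made up 2.85% to 4.63% of the endogenous count in the 19 lanes, and 0.815%, 1.53% and 1.36% in basal 1, flaxseed 3 and SDG 5.

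Within each paralog pair the a member gave more counts than the b member in every lane. Counts of different probes depend on each probe's efficiency as well as on the miRNA, so the order of the 5 probes is given as a description of the counts. Over the 22 lanes miR-23a had a median of 9061 counts, miR-27a 3137, miR-23b 1348.5, miR-24 898 and miR-27b 81. Against the background threshold of each lane, the mean plus 2 SD of its 8 negative control probes, miR-23a was 93.6 to 406 times as high. MiR-27a was 13.0 to 160 times as high, miR-23b 16.2 to 82.1 times and miR-24 3.60 to 57.4 times. MiR-27b stood apart from the others in lying close to the threshold: it exceeded it in 21 of 22 lanes, with a median of 1.94 times, and small differences in its count carry more error than those of the other 4.

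The chromosome 8 pair, miR-23a and miR-27a, gave the highest counts of the family. In the basal lanes miR-23a had 2091 counts in basal 1, 8467 in basal 2, 7227 in basal 3, 11018 in basal 4 and 16230 in basal 6. In the oil lanes it had 8561, 16091, 9108, 11589 and 8970 counts in replicates 1, 2, 3, 4 and 6. Raw counts cannot be compared directly between lanes of different depth. In basal 1 miR-720 took 65.4% of the endogenous count, and its part in the low miR-23a count was not tested. Scaled by the trimmed mean of M-values to log2 CPM (counts brought to a common library size and put on a log2 scale, the level used from here on), miR-23a averaged 14.42 ± 0.18 for the flaxseed diet (SD, n = 6) and 14.13 ± 0.39 for SDG (n = 6), with 14.13 ± 0.23 for the basal diet (n = 5) and 14.03 ± 0.23 for oil (n = 5). The flaxseed mean was the highest, and each step in the order flaxseed, SDG, basal, oil was smaller than the spread between lanes. The SD of miR-23a over the 22 lanes was 0.30, and 6.69% of the 254 tested probes had a smaller one. Over the 19 lanes it was 0.25, and 23.2% had a smaller one.

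MiR-27a, the adipogenesis brake of the same cluster, had its lowest level in basal 1. Its counts in the basal lanes were 290 in basal 1, 2646 in basal 2, 2497 in basal 3, 3992 in basal 4 and 5749 in basal 6. In the oil lanes they were 3147, 5844, 3067, 3997 and 3127 in replicates 1, 2, 3, 4 and 6. Basal 1 lay below every other lane even after scaling, at 10.91 log2 CPM where the other 21 had 12.16 to 13.57. Its level averaged 12.96 ± 0.31 for the flaxseed diet (SD, n = 6) and 12.79 ± 0.25 for SDG (n = 6), with 12.52 ± 0.26 for oil (n = 5) and 12.33 ± 0.80 for the basal diet (n = 5). Without the 3 lanes above 40% miR-720 the basal level was 12.68 ± 0.12 (n = 4) and the flaxseed level 12.84 ± 0.08 (n = 5), so the diets lay closer together.

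The chromosome 13 pair gave lower median counts than the chromosome 8 pair. MiR-23b had 362 counts in basal 1, 1402 in basal 2, 1120 in basal 3, 1918 in basal 4 and 3416 in basal 6. Its oil lanes had 1776, 3253, 2128, 2240 and 1490 counts in replicates 1, 2, 3, 4 and 6. In flaxseed its lowest count was 325, in flaxseed 3, its median 1505.5 and its highest 2873. Its diet means lay within 0.21 of each other, less than the SD within basal and within flaxseed: 11.70 ± 0.13 log2 CPM for oil (SD, n = 5), 11.61 ± 0.30 for basal (n = 5), 11.52 ± 0.56 for flaxseed (n = 6) and 11.49 ± 0.20 for SDG (n = 6). Its SD was 0.33 over the 22 lanes and 0.18 over the 19. A smaller SD was found for 12.6% and 5.91% of the 254 tested probes, so miR-23b varied less between lanes than most of them.

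MiR-27b, the partner that shares its seed with miR-27a, had 23, 77, 58, 102 and 139 counts in basal replicates 1, 2, 3, 4 and 6. It had 96, 155, 85, 102 and 98 counts in oil replicates 1, 2, 3, 4 and 6. In SDG it ran from 49 to 71 counts with a median of 61.5. Flaxseed 3 stood far above all of these with 378 counts, while the other 5 flaxseed lanes had 59 to 165. Its level averaged 8.09 ± 1.29 log2 CPM for flaxseed (SD, n = 6), 7.39 ± 0.31 for oil (n = 5), 7.37 ± 0.18 for basal (n = 5) and 7.25 ± 0.10 for SDG (n = 6). Without flaxseed 3 the flaxseed level was 7.57 ± 0.22 (n = 5), and all 4 diets then overlapped within 7.01 to 7.78.

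MiR-24, the product that both clusters encode, had the largest difference between diet means of the 5 in the 19 lanes, that of oil and SDG. Its oil and flaxseed lanes were apart. In oil it had 1181, 2274, 1524, 1533 and 997 counts in replicates 1, 2, 3, 4 and 6, or 11.03 to 11.41 log2 CPM. In flaxseed it had 63 counts in flaxseed 3 and 686 to 1300 in the other 5 lanes, or 8.11 to 10.84 log2 CPM. The oil and flaxseed lanes did not overlap: the highest flaxseed lane lay below the lowest oil lane. The basal lanes had 201, 913, 598, 1159 and 1888 counts in replicates 1, 2, 3, 4 and 6, at 10.38 to 11.12 log2 CPM, and the SDG lanes ran from 446 to 921 counts at 10.10 to 11.07 log2 CPM. Both of these diets overlapped with flaxseed and with oil. The means were in the order oil 11.16 ± 0.15 (SD, n = 5), basal 10.82 ± 0.36 (n = 5), SDG 10.63 ± 0.37 (n = 6) and flaxseed 10.29 ± 1.07 (n = 6), and neighbours in that order differed by less than their spread. Without the 3 lanes the basal level was 10.94 ± 0.30 (n = 4), the flaxseed level 10.73 ± 0.08 (n = 5) and the SDG level 10.66 ± 0.40 (n = 5). The lowest mean was then that of SDG.

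**Figure D1:**
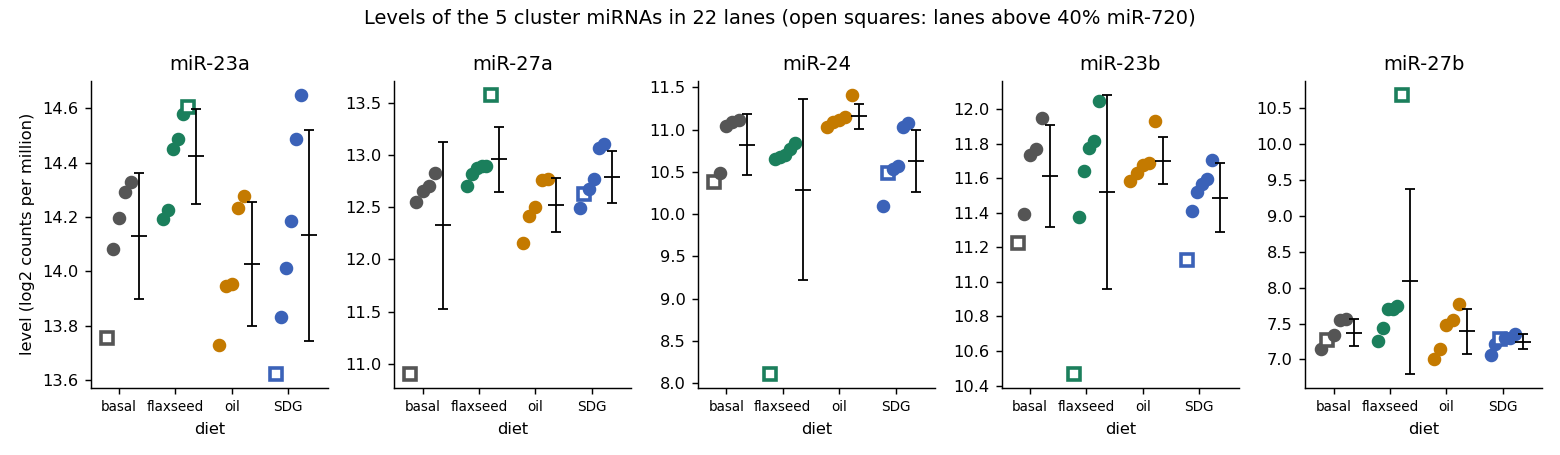
Level of each miRNA (log2 CPM, vertical axis, a scale of its own in each panel) in every lane by diet. Filled circles are the 19 lanes, open squares the 3 lanes above 40% miR-720, and the bars beside them the mean ± SD over all lanes of the diet; the square of flaxseed 3 is low for miR-24 (8.11) and high for miR-27b (10.69), that of basal 1 is low for miR-27a (10.91), and the oil lanes of miR-24 lie above all flaxseed lanes.

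The question for the diets was whether whole flaxseed, or its oil or lignan alone, changed these miRNAs in the gland. Across all 22 lanes, edgeR's quasi-likelihood test with Benjamini-Hochberg adjustment over the 254 tested probes called 0 of the 5 members in each of the 6 comparisons and in the test for any diet, against 0.0% of all tested probes. DESeq2, run with its filter for outlying counts switched off, called 1 of the 5, miR-27b, in flaxseed against oil, beside 12.6% of the tested probes. It called miR-27b again in the test for any diet, beside 3.54%. In edgeR the log2 fold change of miR-27b in flaxseed against oil was 1.33 with 22 lanes and 0.11 without flaxseed 3. In oil against basal DESeq2 called 0 of 5 beside 2.36%. On the authors' deposited log2 table limma called 0 of 5 in each comparison, beside 0.0% of 238 probes. No member thus passed the main test, and the sizes below are estimates with their errors.

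In flaxseed against basal the miR-27 pair had the highest log2 fold changes, 0.52 ± 0.26 (SE) for miR-27a and 1.37 ± 0.49 for miR-27b, and both had an edgeR adjusted p of 0.554. MiR-23a was at 0.29 ± 0.20, miR-23b at -0.039 ± 0.22 and miR-24 at -0.35 ± 0.31. At an unadjusted p under 0.05, 1 of the 5 (miR-27b) passed beside 8.66% of all tested probes. Both miR-27 values rested on lanes above 40% miR-720: with 19 lanes they were 0.15 ± 0.14 and 0.18 ± 0.16, and 0 of the 5 passed the unadjusted threshold beside 1.24% of the 242 probes tested there. Leaving out flaxseed 3 alone gave 0.15 for miR-27b, and leaving out basal 1 alone gave 0.30 for miR-27a. In the 19 lanes 0 members and 0.0% of probes were called.

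For the oil and SDG diets no member passed the unadjusted threshold against basal in either set of lanes. In oil against basal the 5 values ran from -0.10 ± 0.20 for miR-23a to 0.31 ± 0.33 for miR-24, and 0 of the 5 passed at an unadjusted p under 0.05 beside 16.1% of the tested probes. In the 19 lanes they ran from -0.17 to 0.22, again with 0 of 5 beside 21.5%, and 0 were called beside 0.413%. In SDG against basal the values ran from -0.19 ± 0.31 for miR-24 to 0.34 ± 0.26 for miR-27a, with 0 of 5 beside 5.12% at the unadjusted threshold. The 19 lanes gave -0.28 to 0.14, with 0 of 5 beside 9.5%, and 0 were called beside 0.0%. The 95% intervals of the 19-lane values were at most 0.34 wide on either side for these members, so a 2-fold change (a log2 fold change of 1) in any of the 5 lay outside them. With 22 lanes the interval of miR-27b was up to 1.04 wide on either side and did not exclude such a change.

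Flaxseed against oil gave the values of miR-24 and the chromosome 8 pair that lay nearest to the threshold in the 19 lanes. MiR-24 was at -0.65 ± 0.31 (edgeR adjusted p = 0.203), miR-23a at 0.39 ± 0.20 (0.232), miR-27a at 0.45 ± 0.26 (0.288), miR-27b at 1.33 ± 0.49 (0.107) and miR-23b at -0.11 ± 0.22 (0.843). At an unadjusted p under 0.05, 2 of the 5 (miR-24 and miR-27b) passed beside 23.6% of the tested probes. With 19 lanes miR-24 was at -0.45 ± 0.15 with an edgeR adjusted p of 0.0571, the closest of the 5 to the threshold, and miR-27b was at 0.16 ± 0.15. There miR-23a at 0.34 ± 0.14, miR-27a at 0.29 ± 0.13 and miR-24 passed the unadjusted threshold, 3 of 5 beside 33.1% of the probes, while 0 of 5 were called beside 12.8%. The estimates for miR-24 and for the chromosome 8 pair had opposite signs in both sets of lanes.

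Non-overlap was read against the same kind of background. The level of miR-24 did not overlap between flaxseed and oil, as was the case for 10 of 254 probes (3.94%) in 22 lanes and 19 of 254 (7.48%) in 19 lanes, and no other member was without overlap in any of the 6 comparisons. The lymphocyte and myeloid miRNAs, of which 6 of 6 were tested, had summed levels of 13.41 to 16.85 log2 CPM in oil and 13.66 to 15.24 in flaxseed. The value of 15.24 belonged to flaxseed 3, and the other flaxseed lanes reached 14.02. The striated muscle miRNAs, 5 of 5 tested, had 8.68 to 11.97 in oil and 12.65 to 15.83 in flaxseed. In flaxseed against oil the 22-lane medians of these lists were -0.99 (2 of 6 above 0) and 1.50 (4 of 5 above 0), beside 0.078 over all tested probes. In 22 lanes 0 of the listed miRNAs were called, beside 0.0% of all tested probes. In 19 lanes 3 of 6 lymphocyte and myeloid and 2 of 5 striated muscle miRNAs were called, beside 12.8%. The luminal epithelial list had 0 of 5 above 0 in both sets of lanes (medians -0.22 and -0.36). Smooth muscle and fibroblast miRNAs had 1 of 5 above 0 in 22 lanes (-0.046) and 5 of 5 in 19 (0.16). For basal epithelial miRNAs it was 1 of 3 (-0.45) and 0 of 3 (-0.26), and for erythrocyte miRNAs 2 of 3 in both (0.051 and 0.067). The part of these lists in the value of miR-24 was not tested.

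In flaxseed against SDG miR-27b was at 1.50 ± 0.46 (edgeR adjusted p = 0.806) and the other 4 ran from -0.16 ± 0.30 for miR-24 to 0.26 ± 0.19 for miR-23a. Only miR-27b passed the unadjusted threshold, 1 of 5 beside 5.12% of the probes, and it did so again in the 19 lanes, at 0.36 ± 0.15, as 1 of 5 beside 9.09%, with an edgeR adjusted p of 0.417. In those lanes 0 members were called, beside 0.0%. In oil against SDG miR-24 had the highest value, 0.49 ± 0.31 (edgeR adjusted p = 0.755), and 0 of 5 passed the unadjusted threshold beside 7.48%. With 19 lanes it kept its size at 0.50 ± 0.15 with a smaller error (edgeR adjusted p = 0.0980), 1 of 5 at the unadjusted threshold beside 18.6%, and 0 called beside 0.0%.

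The test for any difference of the 3 diets from basal gave miR-27b an edgeR adjusted p of 0.213 and the other 4 values from 0.515 to 0.915 in 22 lanes. At an unadjusted p under 0.05, 1 of 5 passed beside 14.2% of the probes. In the 19 lanes the member with the smallest edgeR adjusted p was miR-24, at 0.127, and 1 of 5 passed the unadjusted threshold beside 24.4%, with 0 called beside 0.413%. The member that led the test thus changed from miR-27b to miR-24 when the 3 lanes were left out.

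**Figure D2:**
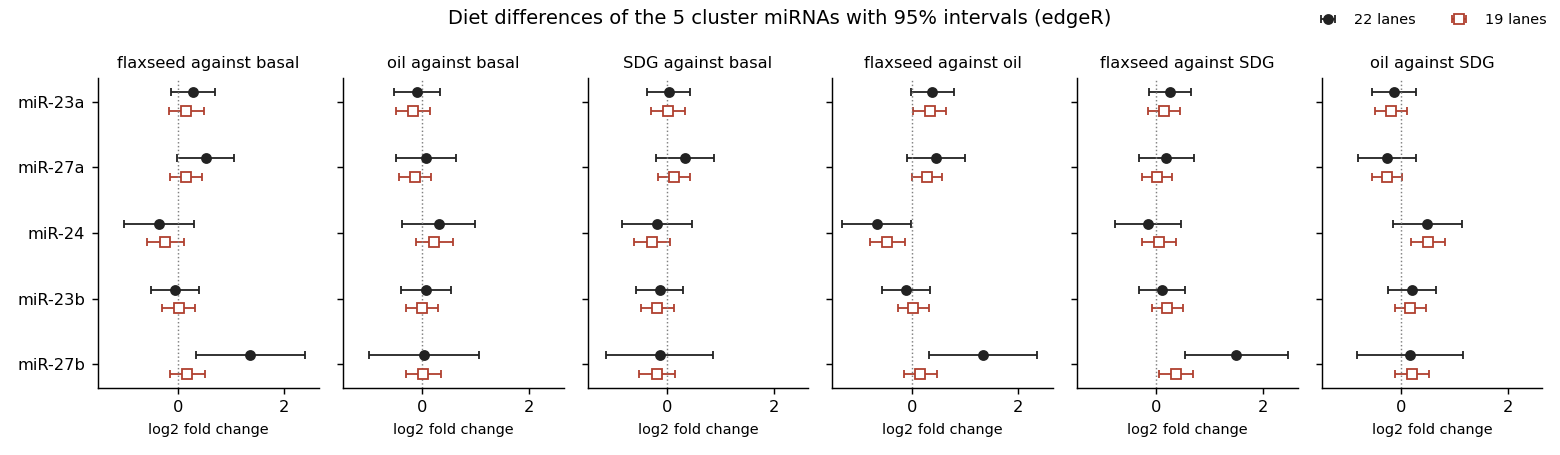
Log2 fold change (horizontal axis) of each miRNA in the 6 diet comparisons with its 95% interval from edgeR, for 22 lanes (filled circles) and for the 19 lanes not above 40% miR-720 (open squares). The intervals of miR-27b narrow and its flaxseed values move towards 0 in the 19 lanes (1.37 to 0.18 against basal), while miR-24 stays below 0 in flaxseed against oil (-0.65 and -0.45).

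Ratios of counts within a lane need no scaling between lanes, and they showed how fixed the proportions of the 2 clusters were. The ratio of miR-27a to miR-23a, which share the chromosome 8 transcript, was the tightest. In oil it was 0.337 to 0.368 over the 5 lanes, and over the 19 lanes its SD was 0.11 on the log2 scale. Basal 1, at 0.139, differed from the median of the 19 lanes by -1.33 on that scale, whereas flaxseed 3 (0.489) and SDG 5 (0.4998) differed from it by 0.49 and 0.52. These 3 lanes are those above 40% miR-720, and with them the SD was 0.35.

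The ratio of miR-24 to miR-23a varied more, with an SD of 0.41 over the 19 lanes. It was 0.138 in oil 1, 0.141 in oil 2, 0.167 in oil 3, 0.132 in oil 4 and 0.111 in oil 6. In flaxseed the lowest was 0.0110, in flaxseed 3, the median 0.0751 and the highest 0.0955. Basal lanes had 0.0827 to 0.116 and SDG lanes 0.0592 to 0.116. The flaxseed and oil lanes again did not overlap, as for 16 of 253 probes set against miR-23a in the same way (6.32%), and for 19 of 253 (7.51%) in the 19 lanes.

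Flaxseed 3 stood apart in several of these proportions, and basal 1 in those that involve miR-27a. Its miR-27b count was 6.00 times its miR-24 count, against 0.0558 to 0.141 times in the other 21 lanes. On the log2 scale the ratio of miR-27b to miR-23b differed from the median of the 19 lanes by 4.49, that of miR-24 to miR-23a by -3.21 and that of miR-23b to miR-23a by -1.62. In this lane miR-27b was high and its chromosome 13 partner miR-23b low, beside a housekeeping mean of 135 counts and a ligation control mean of 4284. The part of RNA quality or of ligation in this was not tested. In basal 1 the ratio of miR-24 to miR-27a differed from the median of the 19 lanes by 1.33, that of miR-23b to miR-27a by 1.32 and that of miR-27b to miR-27a by 1.63.

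The paralog ratios were tested between diets with exact two-sided permutation tests over lanes, adjusted over 12 tests. The log2 ratio of miR-23b to miR-23a averaged -2.33 ± 0.18 for oil (SD, n = 5), -2.52 ± 0.16 for basal (n = 5), -2.65 ± 0.28 for SDG (n = 6) and -2.90 ± 0.69 for flaxseed (n = 6). The smallest p values of this ratio belonged to the differences of -0.58 in flaxseed against oil and 0.32 in oil against SDG, each with an exact p of 0.0606 and an adjusted p of 0.161. Without the 3 lanes the flaxseed mean was -2.66 ± 0.36 (n = 5), and flaxseed differed by -0.33 from oil (exact p = 0.111, adjusted p = 0.286) and by -0.14 from basal (exact p = 0.524, adjusted p = 0.629), the latter being -0.39 with all lanes (exact p = 0.255, adjusted p = 0.438). The log2 ratio of miR-27b to miR-27a averaged -4.88 ± 1.01 for flaxseed, -4.97 ± 0.74 for basal, -5.15 ± 0.13 for oil and -5.56 ± 0.30 for SDG. Its difference of 0.41 between oil and SDG had the smallest p (exact p = 0.0130, adjusted p = 0.156), with overlapping lanes. Without the 3 lanes it was 0.45 (exact p = 0.0238, adjusted p = 0.286), also with overlap. On the authors' deposited log2 table it was 0.54 (exact p = 0.00433, adjusted p = 0.0519), there without overlap, and no share over other ratios was computed for that table. None of the 12 tests passed in any of these 3 settings.

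**Figure D3:**
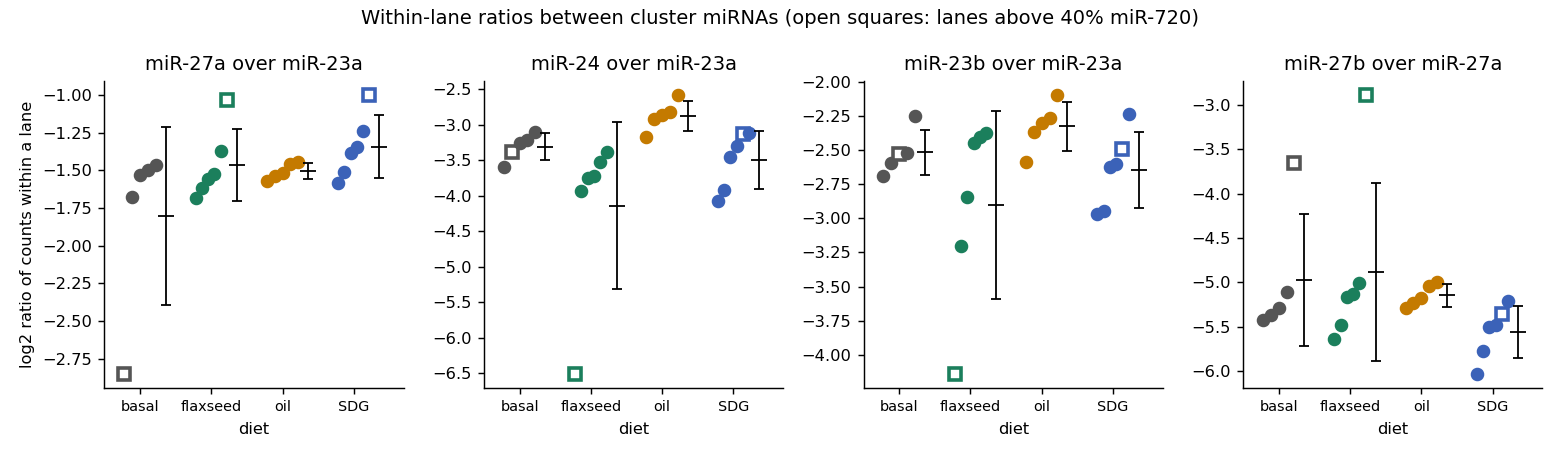
Log2 ratio of counts within each lane (vertical axis, a scale of its own in each panel) by diet, with the mean ± SD over all lanes beside the points. Open squares are the 3 lanes above 40% miR-720; the ratio of miR-27a to miR-23a is tight in the filled circles (SD 0.11 over 19 lanes), and that of miR-24 to miR-23a is higher in every oil lane than in any flaxseed lane.

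Across lanes the levels of the 2 chromosome 8 products were correlated, with and without the 3 lanes. For miR-23a and miR-27a Pearson's r was 0.70 (permutation p = 2.0e-05, adjusted over 10 pairs p = 0.00020) and Spearman's rho 0.88 (permutation p = 1e-05, the smallest that 100000 resamples can give, adjusted p = 0.00010) over 22 lanes. Without the 3 lanes r was 0.90 and rho 0.86, each with the smallest permutation p, and without the 2 lanes farthest from the median of miR-23a (oil 3 and SDG 5) r was 0.76. Of the 253 other tested probes, miR-23a was the closest to miR-27a by rho in both sets of lanes, whereas miR-27a was the closest to miR-23a in 22 lanes and 10th in 19. For the chromosome 13 pair r was -0.60 (permutation p = 0.0450, adjusted p = 0.0983) over 22 lanes and 0.53 (permutation p = 0.0194, adjusted p = 0.0969) over 19, so its sign turned with the 3 lanes. Its rho was 0.36 and 0.57 in the same order.

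MiR-24, which either cluster could supply, was correlated with miR-23b over the 22 lanes. Its r with miR-23b was 0.83 (permutation p = 0.00022, adjusted p = 0.00110) and its rho 0.60 (permutation p = 0.00372, adjusted p = 0.0186) over 22 lanes. Over 19 lanes r was 0.44 (permutation p = 0.0574, adjusted p = 0.191) and rho 0.40. Without the 2 lanes farthest from the median of miR-24, flaxseed 3 and SDG 2, r was 0.54 (permutation p = 0.0137, adjusted p = 0.0593), so the relation past the threshold rested on those lanes. With miR-23a its r was -0.20 (permutation p = 0.405, adjusted p = 0.506) and with miR-27a -0.28 (permutation p = 0.120, adjusted p = 0.171). Between the paralogs r was 0.058 for miR-23a and miR-23b (permutation p = 0.802) and 0.47 for miR-27a and miR-27b (permutation p = 0.0501), with adjusted p of 0.802 and 0.0983. The former depended on the scaling: with each lane scaled by its total count r was 0.83 (permutation p = 0.00059, adjusted p = 0.00197), while rho was 0.36 (permutation p = 0.103, adjusted p = 0.205). A difference between 2 such correlations was not tested.

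**Figure D4:**
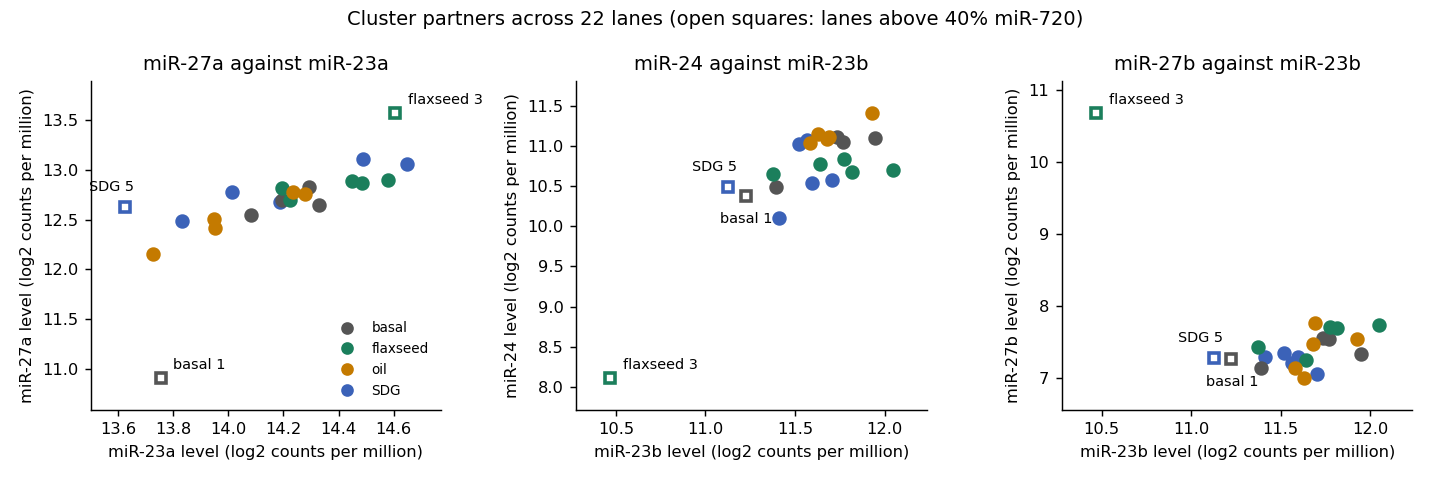
Level of 1 miRNA against another (log2 CPM on both axes) in the 22 lanes, coloured by diet, with the 3 lanes above 40% miR-720 as open squares named beside the point. MiR-27a follows miR-23a apart from basal 1 (r = 0.90 over the 19 lanes), and flaxseed 3 alone sits at low miR-23b in the panels of miR-24 and miR-27b.

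By Spearman's rho over the 22 lanes, the 3 non-member probes most like each member were partly shared between the chromosome 8 products. For miR-23a they were miR-301b (0.88), miR-130a (0.86) and miR-30a (0.85). For miR-27a they were miR-30a and miR-130a (0.83 each) and miR-126-3p (0.78), the best known endothelial miRNA. MiR-130a and miR-126-3p were on the endothelial list used here, as was miR-221, named next for miR-24. MiR-30a was on the adipocyte list. MiR-24 was most like miR-195 (0.84), miR-497 (0.78) and miR-221 (0.73), and miR-23b like miR-195 (0.74), miR-30d (0.73) and miR-99b (0.72). For miR-27b, nearest to background, the highest values were lower, at 0.63 for let-7d, 0.61 for miR-210 and 0.56 for let-7b. In the 19 lanes the probe nearest to both miR-23a and miR-27a was miR-151-5p (0.95 and 0.86), and that nearest to miR-24 was miR-500 (0.87). MiR-130a was 3rd for miR-23a (0.93) there, while the 3 probes nearest to miR-27a were on neither list. The nearest to miR-23b and to miR-27b were miR-98 (0.74) and let-7b (0.64). All these lanes share the panel and its scaling, and the values are descriptions.

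The endothelial and adipocyte miRNAs of the gland, the cell types in which these clusters are best known, were detected in full: 7 of 7 and 10 of 10 passed the filter on low counts. The summed endothelial level ran from 15.77 to 16.31 log2 CPM over the flaxseed lanes, from 15.54 to 15.72 over oil, from 14.87 to 15.94 over basal and from 15.43 to 16.05 over SDG. The summed adipocyte level ran from 15.57 to 16.03 over flaxseed, from 15.24 to 15.68 over oil, from 15.20 to 15.73 over basal and from 15.30 to 15.91 over SDG. The endothelial sum was higher in every flaxseed lane than in any oil lane, and single probes did not overlap there in 3.94% of cases in 22 lanes and 7.48% in 19. The median log2 fold change of its 7 miRNAs in that comparison was -0.14 (3 of 7 above 0) beside 0.078 over all tested probes. In the 19 lanes it was -0.24 (3 of 7 above 0) beside 0.044. The sum and the median thus differed in direction. The part of cell content in the values of the 5 cluster miRNAs was not tested. In flaxseed against basal the median log2 fold change was 0.15 for the endothelial list (5 of 7 above 0) and 0.22 for the adipocyte list (6 of 10 above 0), beside 0.040 over all tested probes. In the 19 lanes these medians were 0.063 (4 of 7 above 0) and 0.12 (9 of 10 above 0), beside 0.046 over all tested probes. In the 22 lanes 0 members of either list were called in any comparison, beside 0.0% of all tested probes. In the 19 lanes 1 of 10 adipocyte miRNAs, miR-148a, was called in flaxseed against oil, beside 12.8% of all tested probes.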

How the data were processed

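The authors deposited, per the file headers, raw nCounter counts of each probe in 22 lanes, and, per the labels, a table of log2 values for the same samples whose scaling and background rule are not given in the sources used here. All 13772 lane values were whole numbers. The 2 lanes that the submitters excluded were not analysed here. The labels name individual mice, and no cartridge or scan batch is named. The members and marker lists were chosen with earlier results of these data known, and the named probes were the members, miR-720 and the 3 tested non-member probes of highest Spearman's rho with each member. Named after their values were seen were miR-148a, the 1 list member called, the nearest probes in 19 lanes and, for their seed alone, 4 miRNAs that share that of miR-24.

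Tested probes were those with counts above the mean + 2 SD of the 8 negative controls in 5 or more lanes (254 probes, and 242 in 19 lanes). Counts were fitted with edgeR 4.0.16 (trimmed mean of M-values, quasi-likelihood F-test, diet as the only term) in R 4.3.3, with Benjamini-Hochberg adjustment within each comparison at 0.05, after tests on simulated data. DESeq2 1.42.0, limma 3.58.1 on the deposited log2 table, 4 other scalings, other filters, a replicate block and leaving out lanes were alternatives. Permutation tests used SciPy 1.17.1. Intervals cover the spread between lanes only.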

Additional observations from a re-analysis of the deposited data

Results flagged for a closer look

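Dixon's test at 95% was applied to the 5 levels and both paralog ratios within each diet, 28 groups of lanes in all, and 6 of them held a lane far from the others; chance flags about 1 in 20 groups. All 6 were in basal 1 or flaxseed 3, both above 40% miR-720, and SDG 5 was not flagged. The levels and ratios share these lanes, so the 6 flags are not independent. In basal 1 the miR-27a level was 10.91 log2 CPM, the nearest other basal lane being at 12.55. In flaxseed 3 the miR-27a level was 13.57 (nearest other flaxseed lane 12.90), the miR-24 level 8.11 (nearest 10.65) and the miR-27b level 10.69 (nearest 7.74). The log2 ratio of miR-27b to miR-27a was -3.66 in basal 1 (nearest -5.10) and -2.89 in flaxseed 3 (nearest -5.01). The miR-23a levels and the ratios of miR-23b to miR-23a held no such lane.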

How the results depend on the processing

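Of the 7 counts of members called, 0 changed when any single lane was left out. With housekeeping scaling 2 of 5 were called in flaxseed against basal (miR-27a and miR-27b), beside 67 of 254 probes. In the test for any diet 1 was called, beside 36. DESeq2 called 1 in flaxseed against oil, beside 32, and 1 in the test for any diet, beside 9, miR-27b each time. Housekeeping scaling moved the median of all probes to 1.39 in flaxseed against basal and 1.15 in flaxseed against oil, and positive control scaling to -0.50 in SDG against basal and 0.79 in oil against SDG. MiR-24 in flaxseed against oil stayed below 0 under every alternative, at -0.42 to -0.96 (edgeR, DESeq2 or limma adjusted p from 0.0571 to 0.540), and relative to the median of all probes it was at -1.57 with housekeeping scaling and -0.58 with total count scaling.

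Of the 18 log2 fold changes given one by one in the results, 7 turned sign under 1 or more settings other than leaving out a lane, as follows, and the cause was not tested. In flaxseed against basal miR-24 was at 0.13 and miR-23b at 0.82 with housekeeping scaling, and miR-23b was at 0.053 with total count scaling and 0.022 without the lanes above 40% miR-720. In oil against basal miR-23a was at 0.13 with total count, 0.14 with housekeeping and 0.11 with positive control scaling, and at 0.008 on the deposited table. In SDG against basal miR-24 was at 0.17 with housekeeping scaling and miR-27a at -0.31 with positive control scaling. In flaxseed against oil miR-23b was at 0.51 with housekeeping scaling and 0.028 without the 3 lanes. In flaxseed against SDG miR-24 was at 0.41 with positive control scaling and 0.049 without the 3 lanes. Of the other 12 values, given only as ranges, 9 turned sign too. With positive control scaling miR-23a was at -0.51 in SDG against basal (main value 0.032) and miR-27a at 0.49 in oil against SDG (-0.27). Leaving out 1 lane at a time, miR-23b in flaxseed against basal ran from -0.16 (without flaxseed 6) to 0.062 (without flaxseed 3) and miR-24 in flaxseed against SDG from -0.25 (without SDG 2) to 0.034 (without flaxseed 3).

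Of the log2 ratios, miR-23b to miR-23a in flaxseed against SDG was 0.019 without the 3 lanes. MiR-27b to miR-27a in oil against basal was 0.027 with the negative controls subtracted and 0.15 without the 3 lanes, and in flaxseed against oil it was -0.14 without them. Leave-one-out values of the latter ratio ran from -0.31 to 0.41 in flaxseed against basal, -0.29 to 0.15 in oil against basal and -0.14 to 0.41 in flaxseed against oil. In flaxseed against basal the sign turned without flaxseed 3, without basal 3 and without basal 6. In oil against basal it turned without basal 1, and in flaxseed against oil without flaxseed 3. Pearson's r turned for miR-23a with miR-24 (0.69 with total count scaling, 0.051 on residuals from diet means), miR-27a with miR-24 (0.53 with total count scaling), miR-23a with miR-23b (-0.076 without the 2 extreme lanes) and miR-23b with miR-27b (0.53 without the 3 lanes, 0.52 without the 2 extreme lanes).

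Same-numbered lanes of different diets had a median r of 0.012 (31 pairs, 12 above 0.1), and other pairs 0.022 (150, 60 above 0.1). As the SDG numbers are uncertain, this cannot exclude pairing. With a replicate block on these numbers 0 of 5 members were called in each comparison, and miR-24 was at -0.71 in flaxseed against oil. The count of all probes called in flaxseed against oil, 0 in 22 lanes, was 6 without flaxseed 3, 9 without basal 1, 7 without flaxseed 6 or oil 6, 1 without oil 2, 31 without the 3 lanes and 32 with DESeq2. With positive control scaling it was 5. Low counts limit miR-27b most.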
